A study of Saccharomyces cerevisiae with 6 samples.

Results

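The mRNAs of 10 budding yeast genes that act after the poly(A) tail has been shortened were followed across 3 strains and 2 growth phases: *DCP1* (YOL149W), *DCP2* (YNL118C), *DHH1* (YDL160C), *PAT1* (YCR077C), *LSM1* (YJL124C), *EDC1* (YGL222C), *EDC2* (YER035W), *EDC3* (YEL015W), *SCD6* (YPR129W) and *XRN1* (YGL173C). The genes were chosen by their known place in mRNA decapping and 5′ decay, not by their values. Earlier results of these data were known when they were chosen. All were found on the array by systematic name, 10 of 6225 names. Wild-type, *ccr4Δ* and *ccr4Δ pbp1Δ* cells were compared in log phase and in stationary phase in YPD, a rich glucose medium, with 1 array for each strain and growth phase. Per the study's methods, overnight cultures without plasmids were grown at 28°C. In the strain list, wild-type 10B is a MATα derivative of W303, and *ccr4Δ* is MATa with *CCR4* replaced by a *LEU2* marker, while the *ccr4Δ pbp1Δ* strain was not found in that list. With no replicate of any of the 6 arrays, a difference between 2 of them has no test.

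Most yeast mRNAs are degraded from the 5′ end once their poly(A) tail has been shortened, mainly by the Ccr4-Not deadenylase, of which Ccr4 is a catalytic subunit. Dcp2 cuts off the cap with the help of its partner Dcp1, and the exonuclease Xrn1 then degrades the uncapped RNA. Activators lead a deadenylated mRNA to this enzyme: the helicase Dhh1 and the scaffold Pat1, the Lsm1-7 ring that binds shortened 3′ ends, and the enhancers Edc1, Edc2 and Edc3. Scd6 and Dhh1 also repress translation, and many of these proteins collect in P bodies. Pbp1, a binding partner of the poly(A)-binding protein Pab1, is deleted together with Ccr4 in the third strain.

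The level of a gene is given on the log2 scale relative to the array: log2 of the processed spot intensity minus log2 of the 75th percentile of all probes on that array. A negative level lies below that percentile. The order of levels given for a gene refers to this scale: relative to *ACT1*, whose own log2 ratio of stationary over log phase in wild-type was -2.35, the wild-type stationary phase array moves up for every gene. Each of the 10 genes had 1 probe with 2 spots, all 10 were well above background on all 6 arrays, and none of their spots was an outlier. Levels were compared between arrays for a gene, and never between genes, because probes differ in how brightly they report an mRNA. A ratio past 1.5-fold in either direction (0.58 on the log2 scale) was counted as higher or lower, among the genes measured well above background on the 2 arrays compared.

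The arrays carried the deletions their labels name. The *CCR4* signal of wild-type exceeded that of the strains lacking it at least 41.3-fold, and the *PBP1* signal of wild-type and *ccr4Δ* that of *ccr4Δ pbp1Δ* at least 209-fold, at the same growth phase. Between 92.7% and 98.4% of probes were well above background, and the 75th percentile of the processed intensity lay between 10689 and 16412. The wild-type log phase array was scanned on a slide of its own, and the other 5 shared a second slide. Of 9 stationary phase markers 8 were measured, and their median rose by 4.08 on the log2 scale in wild-type, 1.35 in *ccr4Δ* and 3.35 in *ccr4Δ pbp1Δ*. In log phase 7 of these 8 were already at least 1.5-fold higher in *ccr4Δ* than in wild-type, with a median log2 ratio of 2.79. Mating type genes followed the strain list, with a median log2 ratio of *ccr4Δ* over wild-type in log phase of 6.18 for the 5 of 7 a-specific genes measured and -7.65 for the α-specific genes.

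The enzymes that remove the cap and degrade the body came to their highest level in wild-type log phase cells on this scale, while relative to *ACT1* all 3 mRNAs were higher in wild-type stationary phase cells, as *XRN1* was after quantile normalization (by 0.12 on the log2 scale). Without scaling, *DCP1* was highest in *ccr4Δ pbp1Δ* log phase cells, by 0.03 over wild-type. *DCP2*, the catalytic subunit, had levels of -0.50 in wild-type, -1.27 in *ccr4Δ* and -0.80 in *ccr4Δ pbp1Δ* in log phase, against -1.05, -1.64 and -1.22 in stationary phase. In both phases the order was wild-type, *ccr4Δ pbp1Δ*, *ccr4Δ*, and the spots of no neighbouring levels overlapped. *XRN1*, the 5′ to 3′ exonuclease, had levels of 1.30, 0.78 and 1.09 in log phase, against 1.23, 0.53 and 0.18 in stationary phase. The order of strains was the same in log phase, but in stationary phase *ccr4Δ pbp1Δ* was the lowest, and again no neighbours overlapped. *DCP1*, the activating subunit, had levels of -0.91, -1.13 and -1.02 in log phase, against -1.55, -1.65 and -1.12 in stationary phase. Its whole range over the 6 arrays, 0.74 on the log2 scale, was the narrowest of the 10 genes, and the spots of *ccr4Δ* in log phase and *ccr4Δ pbp1Δ* in stationary phase overlapped.

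**Figure D1:**
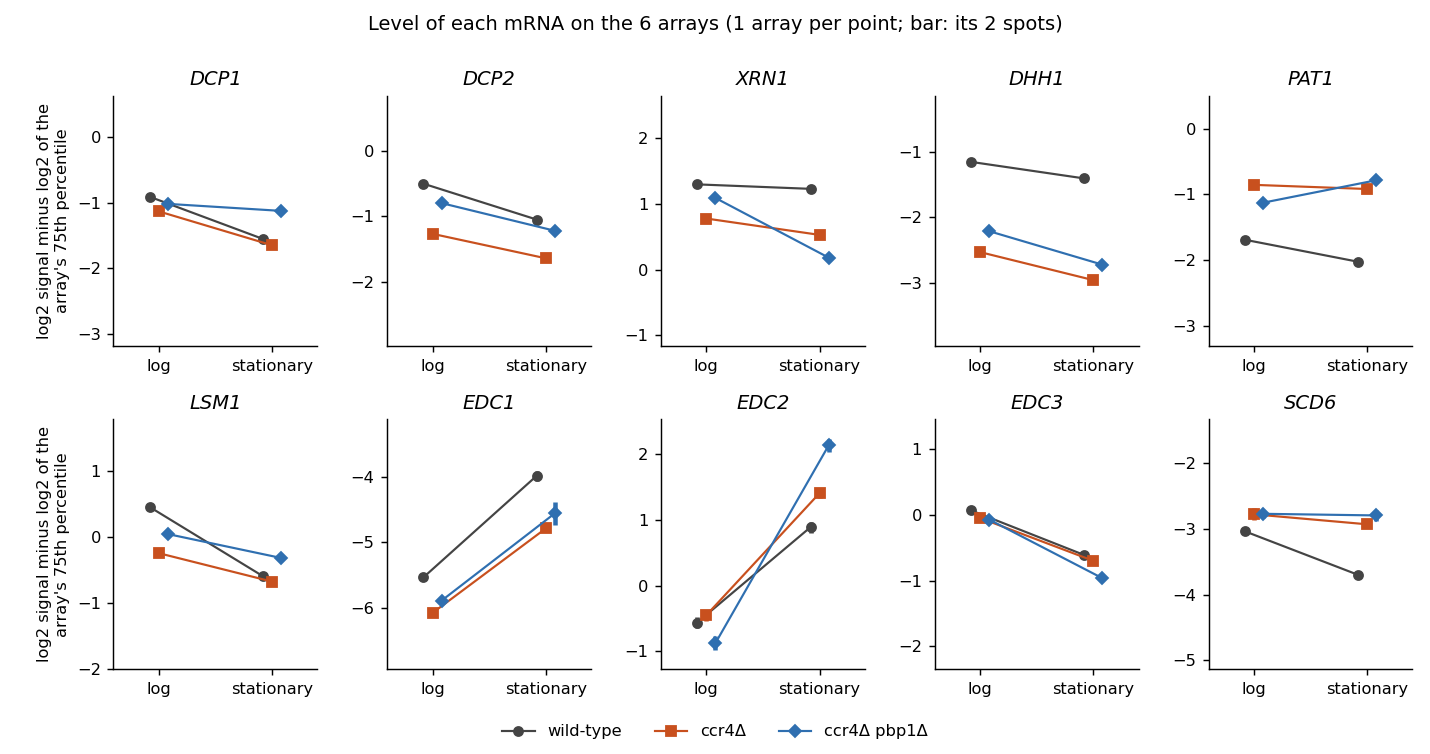
Level of each of the 10 mRNAs (log2 of the processed intensity minus log2 of the array's 75th percentile) in log and stationary phase, with 1 point for each array, lines joining the arrays of a strain and bars spanning the 2 spots of the probe. All panels span the same log2 distance: *EDC1* and *EDC2* rise in all 3 strains, *DHH1* is highest and *PAT1* lowest in wild-type in both phases.

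Among the activators, *DHH1* and *PAT1* were set apart by strain rather than by growth phase, and in opposite directions. *DHH1*, which encodes a DEAD-box helicase, had levels of -1.15 in wild-type, -2.53 in *ccr4Δ* and -2.21 in *ccr4Δ pbp1Δ* in log phase, against -1.41, -2.95 and -2.72 in stationary phase. Both wild-type arrays were above all 4 mutant arrays. *PAT1*, the scaffold that bridges the Lsm1-7 ring and Dcp2, had levels of -1.69, -0.86 and -1.13 in log phase, against -2.03, -0.92 and -0.79 in stationary phase. Both wild-type arrays were below all 4 mutant arrays, and the spots of the *ccr4Δ* arrays of both phases overlapped. *LSM1*, the subunit that distinguishes the cytoplasmic ring from the nuclear one, had levels of 0.46, -0.24 and 0.05 in log phase, against -0.59, -0.68 and -0.32 in stationary phase. Wild-type was highest in log phase, on the array with its own slide, and lay between the mutants in stationary phase. The mutants were 0.29 apart in log phase and 0.36 in stationary phase. The spots of *ccr4Δ* in log phase and *ccr4Δ pbp1Δ* in stationary phase overlapped.

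The enhancers did not move as 1 group. *EDC1* had levels of -5.53, -6.07 and -5.89 in log phase, against -3.99, -4.79 and -4.56 in stationary phase, and *EDC2*, which encodes a related small stimulator of Dcp2, had levels of -0.56, -0.45 and -0.88 in log phase, against 0.89, 1.41 and 2.13 in stationary phase. For both genes every stationary phase array was above every log phase array. *EDC3*, whose product binds Dcp2 and Dhh1, had levels of 0.07, -0.05 and -0.07 in log phase, against -0.61, -0.70 and -0.96 in stationary phase. Here every stationary phase array was below every log phase array. *SCD6*, which encodes an RGG-motif repressor of translation, had levels of -3.04, -2.78 and -2.77 in log phase, against -3.70, -2.93 and -2.80 in stationary phase. Its wild-type arrays were the 2 lowest, and the spots of *ccr4Δ* in log phase and both *ccr4Δ pbp1Δ* arrays overlapped. The range over the 6 arrays was 3.01 for *EDC2*, 2.09 for *EDC1*, 1.80 for *DHH1* and between 0.74 and 1.24 for the other 7 genes.

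In the comparison of *ccr4Δ* with wild-type, the question was whether mRNAs of the later decay steps differ when the deadenylase is missing. *DHH1* was lower in *ccr4Δ* in both growth phases under every scaling tried, and *PAT1* was higher in both, except in stationary phase relative to *ACT1*. *DHH1* was 2.59-fold lower in log phase (log2 ratio -1.37, -1.47 and -1.28 for the 2 spots) and 2.92-fold lower in stationary phase (-1.55, -1.58 and -1.52). *PAT1* was 1.78-fold higher in log phase (log2 ratio 0.83) and 2.15-fold higher in stationary phase (1.11). *DCP2* was 1.70-fold lower in log phase, and in stationary phase its log2 ratio of -0.59 lay just past the limit.

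In log phase 1 of the 10 genes was at least 1.5-fold higher in *ccr4Δ* (*PAT1*, against 13.6% of all genes) and 3 were lower (*DHH1*, *DCP2* and *LSM1*, against 15.9%). In stationary phase 2 were higher (*PAT1* and *SCD6*, against 22.6%) and 4 were lower (*DHH1*, *EDC1*, *XRN1* and *DCP2*, against 29.1%). The log2 ratios of log and stationary phase were -0.70 and -0.08 for *LSM1*, 0.26 and 0.77 for *SCD6*, -0.54 and -0.80 for *EDC1* and -0.52 and -0.70 for *XRN1*. Those of *DCP1*, *EDC2* and *EDC3* stayed within 1.5-fold in both phases, with *EDC2* nearest to the limit at 0.52 in stationary phase. All 10 genes had the same sign in both phases, against 64.9% of all genes, but 9 of 10 after quantile normalization and 5 of 10 relative to *ACT1*. Past 1.5-fold in both phases were *PAT1* (6.27% of all genes higher in both) and *DHH1* and *DCP2* (8.5% lower in both). Over the 10 genes the median log2 ratio was -0.37 (log phase) and -0.09 (stationary phase), against -0.07 and -0.08 over all genes.

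**Figure D2:**
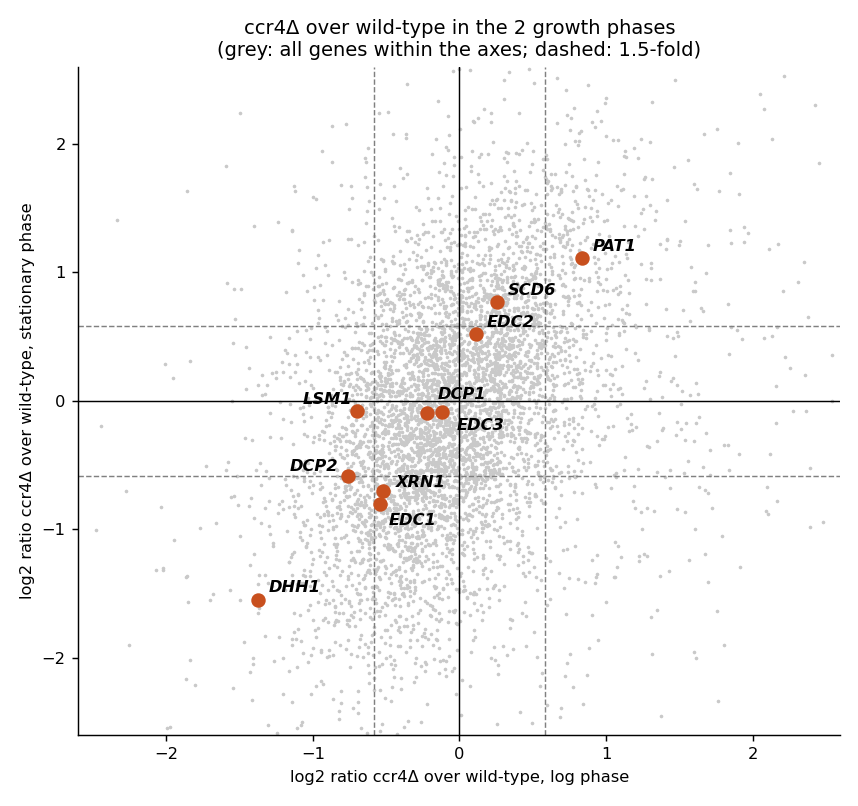
log2 ratio of *ccr4Δ* over wild-type in log phase (horizontal) against stationary phase (vertical) for the 10 genes (orange) and for all genes well above background on all 6 arrays whose ratios lie within the axes (grey), with dashed lines at 1.5-fold. *DHH1* lies at -1.37 and -1.55 and *PAT1* at 0.83 and 1.11, and the other 8 genes lie between.

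An additive model of strain and growth phase was fitted with limma to all 6 arrays and 5728 genes. It has 2 residual degrees of freedom, and the growth phases stand in for replicates of a strain. limma pools a gene's residual over the 3 strains and draws its variance towards a value shared by all genes. Its p-values therefore rest on how far strain differences varied between phases, over all strains and partly over all genes. They do not measure the spread between cultures. None of the 10 genes passed an adjusted p of 0.05 for *ccr4Δ* over wild-type, where 3 of all genes were higher (0.0524%) and 7 lower (0.122%). At an unadjusted p under 0.05, 446 genes were higher and 639 lower, among them *PAT1* higher and *DHH1*, *DCP2* and *EDC1* lower. The difference of *DHH1* was -1.46 (SE 0.27, unadjusted p = 0.0015, adjusted p = 0.143 by limma) and that of *PAT1* 0.97 (SE 0.30, unadjusted p = 0.0164, adjusted p = 0.202). Without the wild-type log phase array, the difference was -1.57 for *DHH1* and 1.21 for *PAT1*, beside 10.9% of all genes called higher and 14.6% lower. That fit leaves 1 wild-type array, so its residual comes from *ccr4Δ* and *ccr4Δ pbp1Δ* alone. It holds no variation within wild-type and cannot show whether the strain difference held in both phases.

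The strains also differed in mating type, and *ccr4Δ* log phase cells had the higher stationary phase markers given above; mating type and the deletion cannot be told apart in this comparison. The wild-type log phase array also lay on its own slide. With *ACT1* as the reference, the study's reference for qRT-PCR, the log2 ratio of *PAT1* in stationary phase became -0.21 and that of *SCD6* -0.55, while *DHH1* stayed lower in both phases (-1.03 and -2.87). *ACT1* itself differed between the strains, with a log2 ratio of *ccr4Δ* over wild-type of -0.34 (log phase) and 1.32 (stationary phase). The paper's own table of array values lists *ACT1* as slightly higher in *ccr4Δ*, without naming the growth phase. In whole-culture RNA, fewer cells with an mRNA and less of it per cell cannot be told apart.

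From log to stationary phase the 2 small enhancers rose in all 3 strains under every scaling tried. The direction of the other genes depended on the reference in wild-type and *ccr4Δ*. In *ccr4Δ pbp1Δ*, *EDC3* (-0.45), *XRN1* (-0.47) and *DHH1* (-0.07) stayed below 0 relative to *ACT1*. *EDC1* was 2.92-fold higher in stationary phase in wild-type, 2.44-fold in *ccr4Δ* and 2.51-fold in *ccr4Δ pbp1Δ*. *EDC2* was 2.73-fold, 3.62-fold and 8.05-fold higher. *EDC3* was 1.60-fold, 1.57-fold and 1.86-fold lower. The log2 ratio of 7 genes (*DCP1*, *DCP2*, *DHH1*, *LSM1*, *EDC3*, *SCD6* and *XRN1*) was below 0 in all 3 strains, against 33.9% of all genes, but that of 6 after quantile normalization, without *XRN1*, and of none relative to *ACT1*. Past 1.5-fold in all 3 strains were *EDC1* and *EDC2* (20.4% of all genes higher) and *EDC3* (18.1% lower).

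In wild-type 2 of the 10 genes were past 1.5-fold higher (33.4% of all genes) and 4 were lower (30.5%), namely *LSM1*, *EDC3*, *SCD6* and *DCP1*. In *ccr4Δ* 2 were higher (29.9%) and 1 was lower (26.2%), and in *ccr4Δ pbp1Δ* 2 were higher (35.9%) and 2 lower (28.6%), *XRN1* and *EDC3*. *LSM1* changed by -1.05 in wild-type, -0.43 in *ccr4Δ* and -0.36 in *ccr4Δ pbp1Δ* on the log2 scale. *XRN1* went the other way round, with -0.07, -0.25 and -0.91, so that its lowest ratio was in the double mutant. *PAT1* had -0.34, -0.06 and 0.34, *SCD6* -0.66, -0.15 and -0.02 and *DCP1* -0.64, -0.52 and -0.11. *DCP2* (-0.55, -0.37 and -0.42) and *DHH1* (-0.25, -0.43 and -0.51) stayed within 1.5-fold in all 3 strains. Set against the change in wild-type, that of *LSM1* in *ccr4Δ* was the only change of the 10 genes to differ by over 1.5-fold, with a difference of 0.62 (22.1% of all genes differed upwards and 25.6% downwards). The change in wild-type rests on the log phase array that lay on its own slide. Set against *ccr4Δ*, the changes in *ccr4Δ pbp1Δ* differed by 1.15 for *EDC2* (13.5% of all genes upwards) and by -0.66 for *XRN1* (11.9% downwards). The median of the 10 genes was -0.44 in wild-type, -0.31 in *ccr4Δ* and -0.24 in *ccr4Δ pbp1Δ*, against 0.05, 0.09 and 0.15 over all genes.

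**Figure D3:**
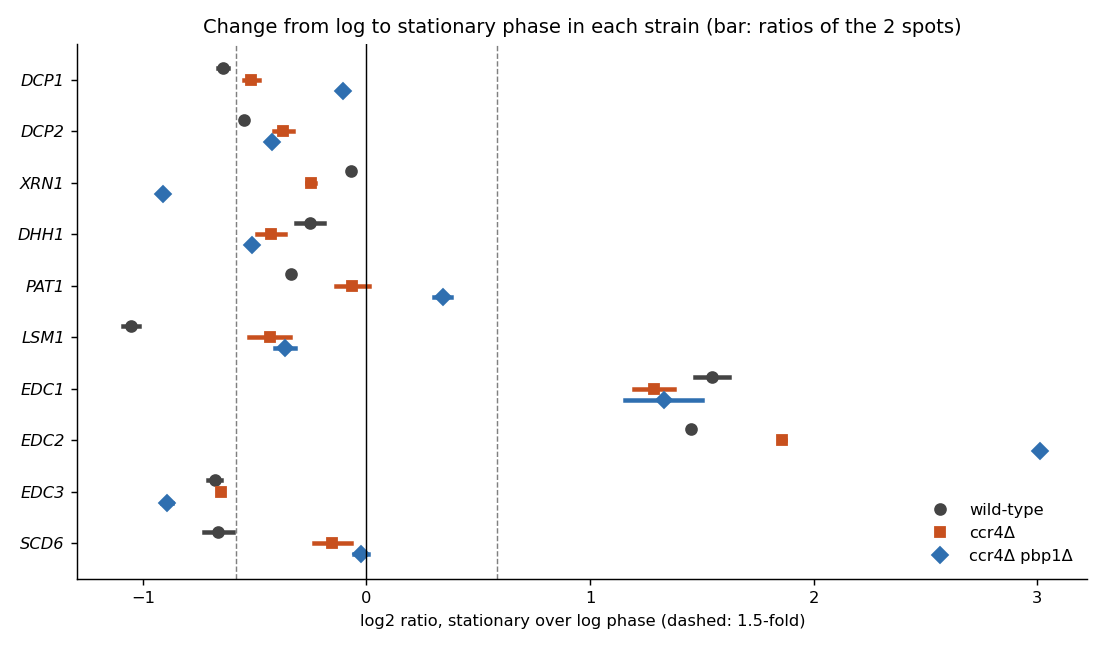
log2 ratio of stationary over log phase for each gene in wild-type, *ccr4Δ* and *ccr4Δ pbp1Δ*, with bars spanning the ratios of the 2 spots and dashed lines at 1.5-fold. *EDC1* and *EDC2* lie between 1.29 and 3.01 in all strains, and every other ratio lies between -1.05 and 0.34.

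In the additive fit, in which the strains stand in for replicates of a growth phase, 3 of the 10 genes passed, 2 higher (25.7% of all genes) and 1 lower (22.6%). *EDC2* rose by 2.11 on the log2 scale (SE 0.34, adjusted p = 0.0048 by limma) and *EDC1* by 1.39 (SE 0.22, adjusted p = 0.0044), and both passed with each array left out in turn. *EDC3* fell by 0.74 (SE 0.22, adjusted p = 0.0340 by limma), but did not pass without either *ccr4Δ* array (adjusted p = 0.200) or either *ccr4Δ pbp1Δ* array (adjusted p = 0.214). *LSM1* came next with a difference of -0.62 (adjusted p = 0.0845 by limma), and the other 6 genes had differences between -0.45 and -0.02 with adjusted p from 0.137 to 0.955. *ACT1* itself had a log2 ratio of -2.35 in wild-type, -0.69 in *ccr4Δ* and -0.44 in *ccr4Δ pbp1Δ*. Relative to *ACT1*, all 10 genes were at least 1.5-fold higher in wild-type stationary cells. Of all genes past 1.5-fold there, 96.8% were higher, and the median log2 ratio over all genes was 2.40. The difference of *EDC3* in the fit became 0.42 relative to *ACT1* (adjusted p = 0.644 by limma). The log2 ratios of *EDC1* were smaller after quantile normalization, at 0.80, 0.80 and 0.65 in wild-type, *ccr4Δ* and *ccr4Δ pbp1Δ*.

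The comparison of *ccr4Δ pbp1Δ* with *ccr4Δ* sets a strain that also lacks Pbp1 against *ccr4Δ*, with 1 array of each in a growth phase. In log phase none of the 10 genes was past 1.5-fold (1.52% of all genes higher and 7% lower). In stationary phase *EDC2* was 1.65-fold higher (10.4% of all genes) and none was lower (10.8%). The largest ratio in log phase was that of *DCP2*, at 0.47 on the log2 scale, followed by -0.43 for *EDC2*. *DCP2* was also higher in stationary phase, by 0.42, and *DHH1* was higher by 0.32 and 0.24, *LSM1* by 0.29 and 0.36, *DCP1* by 0.11 and 0.52 and *EDC1* by 0.19 and 0.23, all short of the limit. The ratio of *XRN1* was 0.31 in log phase but -0.35 in stationary phase.

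The additive fit called 0 genes at an adjusted p of 0.05 for this contrast by limma (0% of 5728 genes), with 25 higher and 95 lower at an unadjusted p under 0.05, of which 0 were among the 10 genes. The median log2 ratio of the 10 genes was 0.15 (log phase) and 0.23 (stationary phase), against 0.01 and 0.04 over all genes. In log phase all 8 stationary phase markers measured were at least 1.5-fold lower in *ccr4Δ pbp1Δ* than in *ccr4Δ*, with a median of -2.15, and their part in these ratios was not tested.

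Against wild-type, with which *ccr4Δ* was compared on the same 2 arrays, *ccr4Δ pbp1Δ* kept the lower *DHH1* level, 2.08-fold in log phase and 2.48-fold in stationary phase. In log phase *DHH1* was the only gene of the 10 past 1.5-fold (7.23% of all genes higher and 9.82% lower), and *PAT1* lay just inside it at 0.56 on the log2 scale. In stationary phase 3 genes were higher (24% of all genes), *PAT1* and *EDC2* with log2 ratios of 1.24 each and *SCD6* with 0.90, and 2 were lower (29.5%), *DHH1* and *XRN1*, *XRN1* by 2.07-fold. With *ACT1* as the reference the stationary phase ratio of *PAT1* was -0.28, that of *EDC2* -0.28 and that of *SCD6* -0.62. This comparison also differs in mating type genes, with a median log2 ratio in log phase of 5.98 for the 5 a-specific genes measured and -8.39 for the α-specific genes, and mating type and the deletions cannot be told apart.

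The partners of Lsm1 in the cytoplasmic ring, Lsm2 to Lsm7, also serve in the nuclear Lsm ring. For *ccr4Δ pbp1Δ* over *ccr4Δ*, the ratios of all 6 mRNAs were above 0 in both growth phases, 1 of 6 past 1.5-fold in log phase (*LSM5*, against 1.52% of all genes) and 3 of 6 in stationary phase (against 10.4%), *LSM5* (0.89), *LSM6* (0.70) and *LSM7* (0.64). The 3 became 1 relative to *ACT1* and 4 without scaling. *LSM3* was near 0 in log phase and 5 of 6 were above 0 there after quantile normalization. Their medians were 0.34 and 0.53, against 0.01 and 0.04 over all genes and beside 0.29 and 0.36 for *LSM1*. The share of all genes above 0 in both growth phases was not counted. For *ccr4Δ* over wild-type, 5 of 6 were below 0 in log phase with a median of -0.46 (-0.07 over all genes). In stationary phase 3 of 6 were below 0, with a median of -0.20 (-0.08 over all genes). None of the 6 passed for growth phase in the additive fit (25.7% of all genes higher and 22.6% lower), with a smallest adjusted p by limma of 0.0715. None passed in a strain contrast either (0.175% of all genes for *ccr4Δ* over wild-type and 0% for the others).

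Other factors of decapping and 5′ decay, 8 genes, gave the widest ratios between phases. *DCS2*, which encodes the relative and inhibitor of the scavenger decapping enzyme Dcs1, had a log2 ratio of stationary over log phase of 4.44 in wild-type, 2.56 in *ccr4Δ* and 4.47 in *ccr4Δ pbp1Δ*. It was already higher in *ccr4Δ* than in wild-type in log phase (2.22), and lower in *ccr4Δ pbp1Δ* than in *ccr4Δ* (-1.79). *STM1*, whose product binds ribosomes, had -3.03, -3.12 and -3.71. In the fit 2 of 8 rose (25.7% of all genes), *DCS2* by 3.82 and *DCS1* by 1.14, and 3 fell (22.6%). Those that fell were *STM1* by 3.29, *DXO1*, a decapping exonuclease, by 1.13 and *RAI1*, the partner of the nuclear exonuclease Rat1, by 0.81. Relative to *ACT1* the ratios of 7 of 8, all but *STM1*, were above 0 in wild-type, beside a median over all genes of 2.40. For *ccr4Δ* over wild-type in stationary phase, *SBP1*, which encodes a repressor of translation, was 2.15-fold higher. The log2 ratio was -1.01 for *RAT1*, 0.77 for *PBY1* and 0.71 for *DCS1*. Relative to *ACT1* all 8 were below 0, beside a median over all genes of -1.40.

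The factors of nonsense-mediated decay, which bring mRNAs with early stop codons to the same decapping enzyme, were measured as 3 genes. *NMD2* (Upf2) had log2 ratios of *ccr4Δ* over wild-type of -1.13 and -1.65 in log and stationary phase, and *NAM7*, the helicase Upf1, of -0.48 and -1.38, while *UPF3* had 0.19 and 0.43, the latter below 0 relative to *ACT1*. In the fit, *NMD2* had a difference of -1.39 (SE 0.28, adjusted p = 0.157 by limma). None of the 3 passed in this contrast (0.175% of all genes did) or for growth phase (25.7% of all genes higher and 22.6% lower).

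The exosome and its Ski cofactors degrade mRNAs from the 3′ end, the other route after deadenylation. From log to stationary phase 10 of the 14 genes fell in the additive fit (22.6% of all genes) and none rose (25.7%). The median difference was -0.81 against 0.08 over all genes. The largest were *RRP42* (-1.41), *MTR3* (-1.13), the helicase gene *SKI2* (-0.98) and *RRP45* (-0.94). Relative to *ACT1*, 14 of 14 ratios were above 0 in wild-type, 7 of 14 in *ccr4Δ* and 3 of 14 in *ccr4Δ pbp1Δ*. The medians over all genes were then 2.40, 0.78 and 0.59. For *ccr4Δ* over wild-type 1 of 14 was past 1.5-fold lower in log phase (*RRP43*, -0.61, against 15.9% of all genes), and in stationary phase 2 were higher (22.6%) and 2 lower (29.1%).

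Binding of the cap by eIF4E for translation protects it from Dcp2. The list here holds the gene of eIF4E with genes of other initiation factors and of eIF4E-binding proteins. Of 7 genes 5 fell from log to stationary phase in the fit (22.6% of all genes). The genes *TIF4631* (eIF4G, -1.64), *CAF20*, encoding an eIF4E-binding repressor (-1.49), *TIF3* (eIF4B, -1.41) and *CDC33*, encoding the cap-binding protein eIF4E (-1.40), had the largest differences. Relative to *ACT1* the ratios of all 7 were above 0 in wild-type and those of 2 of 7 in each of the other strains. The medians over all genes were then 2.40 in wild-type, 0.78 in *ccr4Δ* and 0.59 in *ccr4Δ pbp1Δ*. *EAP1*, encoding another eIF4E-binding protein, had log2 ratios of *ccr4Δ* over wild-type of 0.67 and 1.47, and none of the 7 passed in that contrast (0.175% of all genes did). For *ccr4Δ pbp1Δ* over *ccr4Δ* no gene of any of the 5 lists passed in the fit (0% of all genes did).

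**Figure D4:**
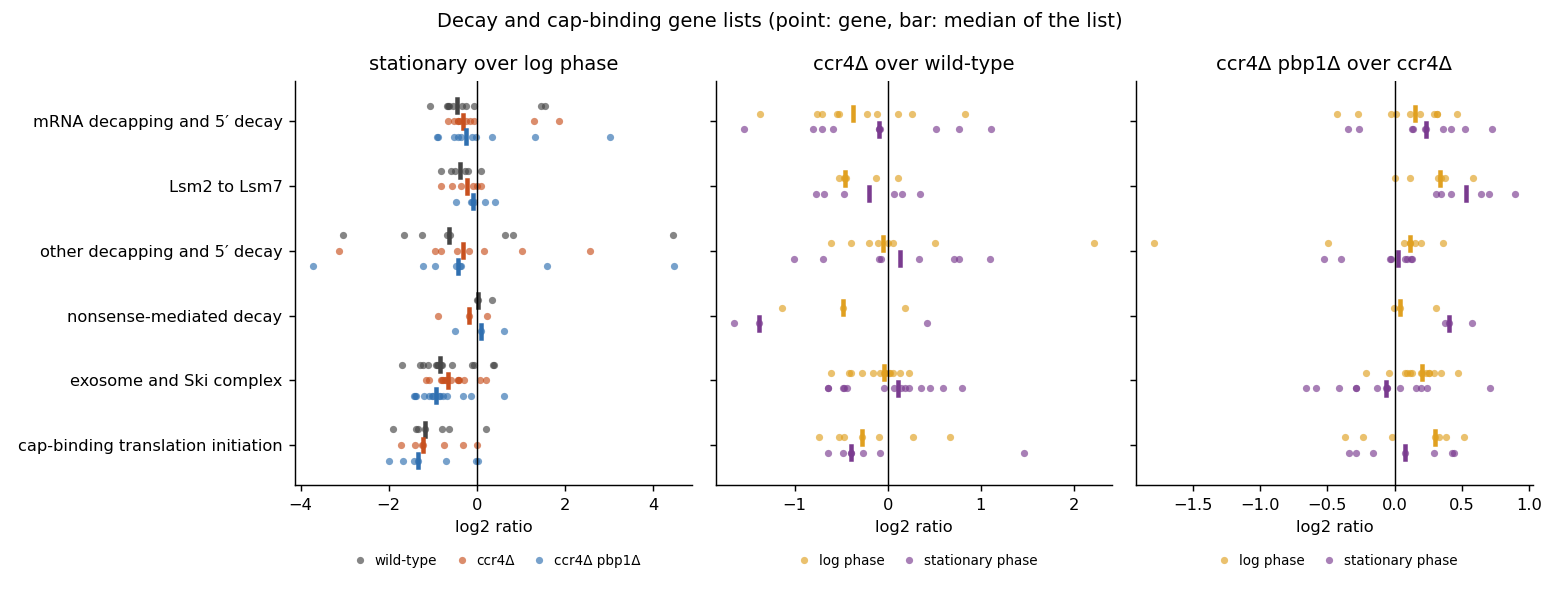
log2 ratios of every gene (points) of the 10 decapping and 5′ decay genes and of 5 other lists, with the median of each list as a bar: stationary over log phase by strain (left), *ccr4Δ* over wild-type (middle) and *ccr4Δ pbp1Δ* over *ccr4Δ* (right) by growth phase, each panel with its own log2 axis. The exosome and cap-binding medians lie below 0 in all 3 strains on the left (relative to *ACT1* both are above 0 in wild-type, and the exosome median in *ccr4Δ* too), and all 6 points of Lsm2 to Lsm7 lie at or above 0 on the right.

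The 10 mRNAs did not follow a common pattern over the 6 arrays. Of 45 pairs 23 had a Pearson correlation above 0, the highest being 0.91 (*DCP1* and *LSM1*) and the lowest -0.98 (*EDC2* and *EDC3*). *DHH1* and *PAT1* gave -0.92, *PAT1* and *SCD6* 0.87, *DHH1* and *XRN1* 0.86 and *EDC1* and *EDC2* 0.80. These are descriptions over 6 arrays that share 3 strains and 2 growth phases. The mRNAs most like *DCP2* over the 6 arrays were *SAS3* (r = 0.99), *RFC2* (0.99), *TAD1* (0.99), *CDC39* (0.98) and *YKT6* (0.98), and 93 of 5727 genes had r above 0.9. Those most like *XRN1* were *YNL095C*, *TRM732*, *NUP157*, *NOP19* and *NUP170*, with r between 0.986 and 0.994, and 170 genes had r above 0.9.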

How the data were processed

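The authors deposited the spot intensity of each 1-colour array as Feature Extraction 11.0.1.1 gave it, from 100 ng of total RNA, and a table of processed intensities of 6316 rows, 6256 of which match a probe. Every array holds one and the same set of values in that table, so it is quantile-normalized, a step not named in the sources used here. From the deposited intensity, control spots (536) and outlier spots were removed and log2 of the processed signal taken, with the array's 75th percentile subtracted and the 2 spots of 6256 probes averaged. A gene is the mean of its probes, and 6196 of 6225 names had 1 probe. Symbols came from the RefSeq table, in which 5720 names were found. A probe was measured when both spots were well above background. For a deleted gene, a bound was taken from the lowest signal well above background.

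limma 3.58.1 in R 4.3.3 fitted strain and growth phase to 6 arrays, with Benjamini-Hochberg adjustment over 5728 genes, and was tested on simulated data. Figures and summaries used Python 3.11.15. The text names all 10 genes, the 2 deleted genes, *ACT1*, up to 4 genes of each list by size of ratio and the 5 genes most like *DCP2* and *XRN1*. The 10 genes and all lists were chosen with earlier results of these data known. Alternatives were no scaling, the median, quantile normalization, *ACT1* as the reference, normexp background correction (on the median spot signal, offset 50), the authors' table, the brightest probe, a 2-fold limit, a trended prior, no filter on dim probes and each array left out. A block for slide was not fitted: slide 1 holds 1 array, and the block equals leaving it out. Sequences were not analysed here.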

Additional observations from a re-analysis of the deposited data

Results flagged for a closer look

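For 3 genes the effect of the *PBP1* deletion in *ccr4Δ* cells had opposite signs in the growth phases. The log2 ratio of *ccr4Δ pbp1Δ* over *ccr4Δ* was -0.43 in log phase and 0.73 in stationary phase for *EDC2*, a difference of 1.15. For *XRN1* it was 0.31 and -0.35, a difference of -0.66, and for *PAT1* -0.27 and 0.13, a difference of 0.41, although relative to *ACT1* both ratios of *PAT1* were below 0 (-0.22 and -0.07). The change of *PAT1* from log to stationary phase had opposite signs between strains, -0.34 in wild-type against 0.34 in *ccr4Δ pbp1Δ* (a difference of 0.68), and -0.06 in *ccr4Δ* against 0.34 (a difference of 0.41). These opposite signs were lost without scaling, where *PAT1* was below 0 in all 3 strains (-0.42, -0.54 and -0.05), and relative to *ACT1*, where it was above 0 in all 3 (2.02, 0.63 and 0.78). With 1 array for each strain and growth phase none of these differences was tested. The ratio of stationary over log phase was at least 1.5-fold higher in *ccr4Δ pbp1Δ* than in *ccr4Δ* for 13.5% of all genes, and at least 1.5-fold lower for 11.9%. The difference of 0.41 for *PAT1* did not reach this limit.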

How the results depend on the processing

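The additive fit compares strains within a growth phase and phases within a strain, and the labels number no replicates that could pair the arrays further. Alternatives for *ccr4Δ pbp1Δ* over wild-type were added after seeing the data. Of 30 ratios of the 10 genes past 1.5-fold in the 9 comparisons, all kept their sign in the 150 values without scaling, with median or quantile scaling, with normexp and in the authors' values, and 6 of these values fell inside the limit. Scaling to *ACT1* turned 10 of 30: in wild-type stationary over log phase *DCP1* became 1.71, *LSM1* 1.30, *EDC3* 1.67 and *SCD6* 1.69, in *ccr4Δ* *EDC3* became 0.039, for *ccr4Δ* over wild-type in stationary phase *PAT1* became -0.21 and *SCD6* -0.55, and for *ccr4Δ pbp1Δ* over wild-type in stationary phase *PAT1* became -0.28, *EDC2* -0.28 and *SCD6* -0.62. In the additive fit *EDC3* became 0.42. The median of all genes moved by 2.35, 0.69 and 0.44 with *ACT1* in the phase ratios of wild-type, *ccr4Δ* and *ccr4Δ pbp1Δ*, by 0.34 and -1.32 for *ccr4Δ* over wild-type and 0.39 and -1.52 for *ccr4Δ pbp1Δ* over wild-type in log and stationary phase, and by -0.20 for *ccr4Δ pbp1Δ* over *ccr4Δ* in stationary phase. Without scaling it moved by -0.48 and -0.39 in the phase ratios of *ccr4Δ* and *ccr4Δ pbp1Δ*, by -0.40 for *ccr4Δ* over wild-type in stationary phase and by 0.14 and 0.23 for *ccr4Δ pbp1Δ* over *ccr4Δ*.

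With *ACT1*, the counts of the 10 genes past 1.5-fold became 10 higher and 0 lower in the wild-type phase ratio and 0 lower in those of *ccr4Δ* and *ccr4Δ pbp1Δ*, 2 higher and 1 lower for *ccr4Δ* over wild-type in log phase, 0 higher and 8 lower in stationary phase, 2 higher in log phase and 0 higher and 8 lower in stationary phase for *ccr4Δ pbp1Δ* over wild-type, and 0 higher for *ccr4Δ pbp1Δ* over *ccr4Δ* in stationary phase. Without scaling, 7 were lower in the phase ratio of *ccr4Δ* and 5 in that of *ccr4Δ pbp1Δ*, 1 was higher for *ccr4Δ* over wild-type in stationary phase, and 1 and 4 were higher for *ccr4Δ pbp1Δ* over *ccr4Δ* in log and stationary phase. For *ccr4Δ pbp1Δ* over wild-type in log phase 1 was higher without scaling and 1 with median scaling. At a 2-fold limit 1, 0 and 0 were lower in the 3 phase ratios, 0 were higher and 1 lower for *ccr4Δ* over wild-type in log phase, 1 higher and 1 lower in stationary phase, and 0 higher for *ccr4Δ pbp1Δ* over *ccr4Δ* in stationary phase. Of all genes past 1.5-fold, the share that was higher went without scaling from 53.3% to 27.7% and from 55.7% to 38.5% in the phase ratios of *ccr4Δ* and *ccr4Δ pbp1Δ*, from 43.7% to 20.4% for *ccr4Δ* over wild-type in stationary phase, from 17.9% to 46.5% and from 49.0% to 80.5% for *ccr4Δ pbp1Δ* over *ccr4Δ*, and from 42.4% to 63.7% and from 44.9% to 33.5% for *ccr4Δ pbp1Δ* over wild-type, in log and stationary phase. With *ACT1* it was 2.55% and 1.45% for *ccr4Δ* and *ccr4Δ pbp1Δ* over wild-type in stationary phase. In the wild-type phase ratio it was 96.8% with *ACT1*. The share of all genes past either limit in these settings is not given here, so these counts of the 10 genes cannot be set against it.

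In the additive fit for growth phase, 887 genes were higher and 3 of the 10 genes lower without scaling, and 155 genes and 0 of the 10 lower with *ACT1*. With each array left out, 754 to 1735 genes were higher, 697 to 1508 lower, and 0 to 1 of the 10 lower. For *ccr4Δ* over wild-type 9 genes were higher without the filter and 16 lower with *ACT1*, and with each array left out 7 to 624 genes were higher, 10 to 837 lower, and 0 to 1 of the 10 genes higher and 0 to 1 lower. For *ccr4Δ pbp1Δ* over *ccr4Δ*, 1 gene was lower without the filter, and with each array left out 0 to 1 genes were higher and 0 to 18 lower. A lone array of a strain was assumed to vary like the others. The cause of these changes was not tested. The number of arrays limits the precision of every value.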
